A study of Homo sapiens with 1 sample.

Results

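The SOX family of transcription factors was examined in neural progenitor cells (NPCs) grown from human embryonic stem cells. The 10 members taken up here, SOX1, SOX2, SOX3, SOX4, SOX5, SOX6, SOX9, SOX11, SOX13 and SOX21, were chosen by gene symbol from the 33538 genes listed for the library, which hold 19 SOX genes in all. The rule names genes and no level, although the choice of genes was made with earlier results of these data known. The single-cell RNA sequencing (scRNA-seq) library, hHAR123, was made from the human embryonic stem cell line H9 with the genotype WT, that is, with its own human form of the enhancer HAR123, a human-accelerated region. For 2 days the cells had received Rock inhibitor at 5 μM together with the BMP and TGF-β pathway inhibitors dorsomorphin at 1 μM and SB431542 at 10 μM. The inhibitors dorsomorphin and SB431542 were kept on for 5 days of rotation culture, and the replated cells then grew for 7 days. According to the methods, 2 independent clones were pooled before loading and the rosettes had not yet been selected, so the clones cannot be told apart. Libraries of other genotypes are not used here. With 1 library and no replicate there was nothing to test against, and every interval below is a 95% interval for counting error only.

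SOX proteins bind DNA through an HMG box and are grouped by its sequence. SOX1, SOX2 and SOX3 form the B1 group, which maintains neural progenitors, while SOX21, of the B2 group, counteracts them and promotes exit from the progenitor state. SOX4 and SOX11, of the C group, act in newborn neurons and activate neuronal genes such as TUBB3. SOX5, SOX6 and SOX13, of the D group, have no activation domain of their own and modulate other SOX proteins, and SOX9, of the E group, acts in neural stem cells and in the turn to glia and also in cartilage.

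The genes differ in structure, which bears on how their molecules are counted. In GENCODE 44 on GRCh38, SOX1 (chromosome 13, 112067149 to 112071706, plus strand), SOX2 (chromosome 3, 181711925 to 181714436, plus strand), SOX3 (chromosome X, 140502985 to 140505069, minus strand) and SOX4 (chromosome 6, 21593751 to 21598619, plus strand) have 1 exon each, as do SOX11 and SOX21. SOX5 spans 1033 kb with 15 exons and SOX6 spans 773 kb with 16 exons, so that these genes are mostly intron, and SOX13 spans 54.6 kb with 14 exons. SOX1-OT spans SOX1 on the same strand, and SOX21-AS1 spans SOX21 on the opposite strand. The strand used for counting is not given in the sources used here, and how reads from such overlapping transcripts were assigned was not checked.

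The 250 bases before the start site are shown for the B1 genes and for SOX4, because these members moved in opposite directions between progenitors and newborn neuron-like cells. They were taken from RefSeq promoters on GRCh38.p14, which matched 8 of the 10 members. Capitals mark a CCAAT box (CCAAT or its complement ATTGG) or an E-box (CANNTG, a pattern that is its own reverse complement). The windows lie at chr13:112066899-112067148 (plus strand), chr3:181711675-181711924 (plus strand), chrX:140505070-140505319 (minus strand) and chr6:21593501-21593750 (plus strand), in the order below.
SOX1: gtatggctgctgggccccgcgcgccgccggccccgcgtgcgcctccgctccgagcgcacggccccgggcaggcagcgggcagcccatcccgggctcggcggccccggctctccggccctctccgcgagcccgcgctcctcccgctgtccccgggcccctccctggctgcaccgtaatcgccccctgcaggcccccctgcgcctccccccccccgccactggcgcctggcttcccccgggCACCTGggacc
SOX2: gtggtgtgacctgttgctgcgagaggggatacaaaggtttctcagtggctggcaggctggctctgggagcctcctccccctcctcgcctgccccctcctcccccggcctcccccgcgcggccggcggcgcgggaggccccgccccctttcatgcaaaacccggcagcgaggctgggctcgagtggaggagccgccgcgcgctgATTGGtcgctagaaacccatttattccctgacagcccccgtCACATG
SOX3: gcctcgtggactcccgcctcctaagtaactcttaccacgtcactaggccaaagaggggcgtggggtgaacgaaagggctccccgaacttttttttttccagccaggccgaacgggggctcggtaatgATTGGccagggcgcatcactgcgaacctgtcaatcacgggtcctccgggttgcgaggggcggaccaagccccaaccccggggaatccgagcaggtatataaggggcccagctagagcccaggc
SOX4: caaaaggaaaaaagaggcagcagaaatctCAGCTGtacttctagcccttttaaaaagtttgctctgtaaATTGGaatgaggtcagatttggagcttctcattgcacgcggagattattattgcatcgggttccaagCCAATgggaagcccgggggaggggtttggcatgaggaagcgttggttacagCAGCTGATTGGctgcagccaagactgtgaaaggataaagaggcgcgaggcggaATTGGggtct

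The SOX4 window held 4 CCAAT boxes and 2 E-boxes, SOX2 held 1 of each, SOX3 held 1 CCAAT box and SOX1 held 1 E-box, and no CCAAT box overlapped an E-box. Of the matched members not shown, SOX21 held 1 CCAAT box and 2 E-boxes, SOX13 held 1 E-box, and SOX5 and SOX6 held neither. Of 35116 RefSeq promoters, 32.0% held at least 1 CCAAT box and 61.8% at least 1 E-box in the same 250 bases. The number of boxes in each was not compared over all promoters. G and C made up 82.0% of the SOX1 window, 68.8% of the SOX2 window, 61.6% of the SOX3 window and 48.8% of the SOX4 window. These letter matches describe the windows and are not shown to be sites.

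Of 14726 barcodes, 13925 were kept, with 2000 to 10000 genes and a mitochondrial share of unique molecular identifiers (UMIs) below 0.1, and their median depth was 17900 UMIs. Cells with a UMI of 3 or more of STMN2, ELAVL3, ELAVL4, INSM1, NHLH1 and NEUROD1 were called newborn neuron-like (121 cells, 0.869% of kept cells). Cells with 5 or more UMIs of ANXA1, TFPI2 and CTGF per 10000 were called contractile (1582 cells, 11.4%), 2 cells met both rules and entered neither class, and the other 12220 cells (87.8%) were the progenitors. Markers outside the rules were then compared: all 8 further neuron genes, DCX among them, were 2-fold or more higher in newborn neuron-like cells than in progenitors, and all 7 further contractile genes, ACTA2 among them, were so in contractile cells. GAP43 of the neuron list was also higher in contractile cells, with a ratio of 8.46. Of 8 neural progenitor genes, 4 were 2-fold lower in newborn neuron-like cells, and in contractile cells 4 were lower, LHX2 and OTX2 among them, and 2 were higher, VIM and NES. Levels are pooled CPM, the UMIs of a gene over all UMIs of the class, times 1e+06. Of 6 pluripotency genes, NANOG, POU5F1, TDGF1 and ZFP42 were each below 1 CPM in all 3 classes, whereas LIN28A stood at 236, 106 and 191 CPM and DPPA4 at 126, 73.5 and 66.4 CPM in progenitors, newborn neuron-like and contractile cells. The classes differed in depth and phase: the median was 16944 UMIs in progenitors, 14100 in newborn neuron-like cells and 47149.5 in contractile cells, and 26.3%, 86.8% and 23.4% of cells were called G1. In the same order, 43.0%, 7.44% and 32.5% were called S, and 30.7%, 5.79% and 44.1% G2/M.

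**Figure D1:**
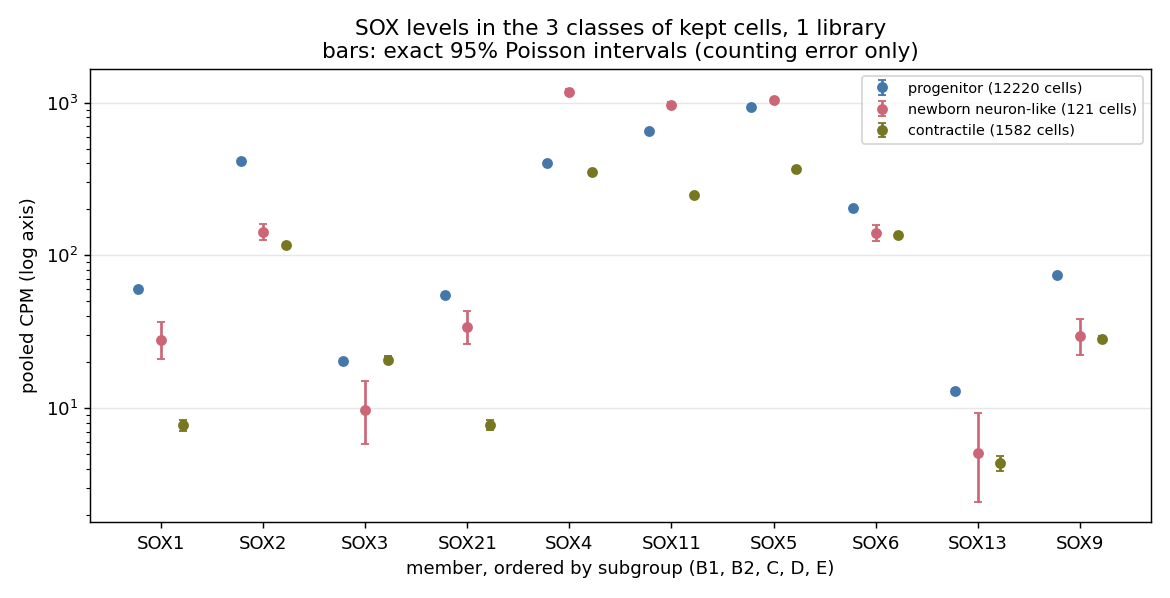
Pooled CPM (log axis) of each SOX gene in progenitors (blue), newborn neuron-like cells (red) and contractile cells (olive), with exact 95% Poisson intervals. SOX4 was highest in newborn neuron-like cells, at 1177 CPM, and SOX1 and SOX21 were lowest in contractile cells, at 7.71 and 7.73 CPM.

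A gene was counted as higher or lower when its ratio to progenitors was 2-fold or more, and the same count was made over 15626 genes at 1 CPM or more. Levels are compared within a gene and not between genes.

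Newborn neuron-like cells had less of the B1 group and of SOX9, and more of SOX4, than progenitors. Of the 10 members, 5 were 2-fold or more lower (SOX1, SOX2, SOX3, SOX9 and SOX13), against 12.8% of all genes, and at 1.5-fold 6 were lower, against 23.6%. SOX4 was 2-fold or more higher, against 8.47% of all genes (16% at 1.5-fold), and SOX5, SOX6, SOX11 and SOX21 did not pass 2-fold. The median log2 ratio was -0.88 over the members and -0.09 over all genes, and by UMIs per cell these medians were -1.12 and -0.34.

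SOX2, the B1 gene most studied as a progenitor factor, stood at 414 CPM (412 to 417) in progenitors and at 142 CPM (126 to 160) in newborn neuron-like cells, a ratio of 0.343 (0.304 to 0.385). Per cell, the middle 50% of progenitors held 2.66 to 5.62 SOX2 UMIs per 10000, against 0 to 1.49 in newborn neuron-like cells. These middle ranges did not overlap, whereas the full ranges did, since the highest newborn neuron-like cell reached 8.39 per 10000. After each cell was thinned to 5000 UMIs, 84.7% (84.1 to 85.4) of progenitors and 35.0% (26.5 to 44.2) of newborn neuron-like cells had a SOX2 UMI, and unthinned the shares were 98.9% and 50.4%.

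SOX1, which is used as a marker of committed neural progenitors, stood at 60.0 and 27.9 CPM, a ratio of 0.465 (0.350 to 0.605) that rested on 55 UMIs in newborn neuron-like cells. SOX3, the X-linked B1 gene, stood at 20.2 and 9.64 CPM, a ratio of 0.478 (0.287 to 0.747) on 19 UMIs. In cells thinned to 5000 UMIs the SOX3 ratio was 0.160 (0.019 to 0.579), and over all alternatives it ran from 0.102 to 0.910. The intervals of SOX1 and SOX3, thinned or not for SOX3, reach across the 2-fold limit of 0.5, as do those of SOX9 and SOX13 below, so that these calls are not settled even by counting. The summed level of the B1 group was 495 CPM in progenitors and 180 CPM in newborn neuron-like cells.

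SOX21 stood at 54.7 CPM in progenitors and at 34.0 CPM in newborn neuron-like cells, a ratio of 0.621 (0.481 to 0.790) on 67 UMIs. It did not pass 2-fold here, whereas among G1 cells alone the ratio was 0.457.

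SOX4 was at 403 CPM (400.4 to 406) in progenitors and 1177 CPM (1130 to 1226) in newborn neuron-like cells, a ratio of 2.92 (2.80 to 3.04). Progenitors held 2.30 to 5.56 SOX4 UMIs per 10000 in the middle 50% of cells, with a median of 3.72, and newborn neuron-like cells 7.06 to 17.4 with a median of 11.2. These middle ranges did not overlap, although the highest progenitor, at 61.9 per 10000, stood above the highest newborn neuron-like cell, at 56.2. That progenitor had under 10000 UMIs and none of the 6 neuron markers. It lay in cluster 10, described below, which was led by NEUROD1, NEUROG1 and EOMES, so it is not typical of progenitors.

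SOX11, the other neuronal C-group gene, was at 652 and 969 CPM, a ratio of 1.48 (1.42 to 1.55), and the middle ranges of 4.66 to 8.31 and 6.31 to 12.4 UMIs per 10000 overlapped. All 121 newborn neuron-like cells had a SOX11 UMI and 120 had a SOX4 UMI. Together with SOX12, the C group summed to 1090 and 2171 CPM.

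In the D group, SOX5 stood at 932 and 1034 CPM, a ratio of 1.11 (1.06 to 1.16) that turned to 0.937 by UMIs per cell. SOX6 stood at 204 and 140.5 CPM, a ratio of 0.689 (0.610 to 0.775). SOX13, on only 10 UMIs in newborn neuron-like cells, was at 12.9 and 5.07 CPM, a ratio of 0.394 (0.189 to 0.726). Neither SOX5 nor SOX6 passed 2-fold.

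SOX9 was at 73.9 CPM (72.81 to 75.004) in progenitors and 29.4 CPM (22.3 to 38.02) in newborn neuron-like cells, a ratio of 0.398 (0.302 to 0.515). After thinning, 29.4% of progenitors and 10.0% of newborn neuron-like cells had a SOX9 UMI.

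Phase and RNA content moved with this comparison. Among G1 cells alone the SOX4 ratio was 2.44 and the SOX2 ratio 0.195, and 5 members were again 2-fold or more lower, namely SOX1, SOX2, SOX9, SOX13 and SOX21, against 13.5% of all genes in the same cells, while SOX3 stood at 0.534. MALAT1, a nuclear RNA, was at 20673 CPM in newborn neuron-like cells and 9820 CPM in progenitors, and its part in the result was not tested. With the class opened to cells with 2 or more neuron markers, none of the 10 members passed 2-fold, against 3.06% of all genes higher and 1.39% lower, so that far fewer genes of any kind passed than with 3 or more markers.

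**Figure D2:**
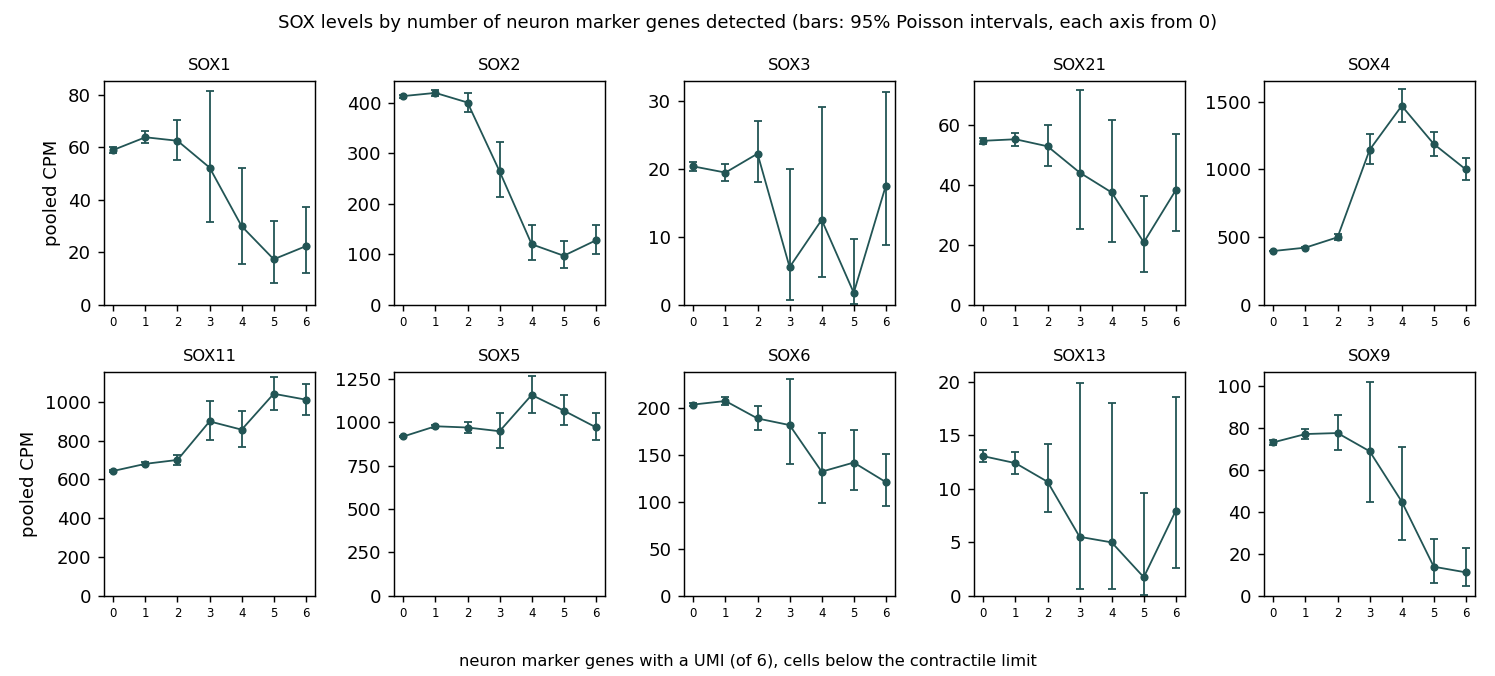
Pooled CPM of each SOX gene by the number of the 6 neuron marker genes with a UMI, from 0 (9712 cells) to 6 (38 cells), in progenitors and newborn neuron-like cells, with 95% Poisson intervals and a linear axis from 0 in each panel. SOX2 was lower and SOX4 higher at 3 markers and beyond, and SOX9 lower at 4 and beyond, than in cells with none, and SOX4 was 498 CPM at 2 markers against 396 CPM with none.

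The change was not even along the number of neuron markers. Cells with 0, 1 and 2 markers had SOX2 at 413, 419.7 and 401 CPM, and the 22 cells with 3 markers were at 264 CPM. SOX2 then stood at 119.6, 96.8 and 127 CPM with 4, 5 and 6 markers. With 3 markers the SOX2 level came from few cells: 12 of the 22 had a SOX2 UMI, 1 cell held 26 of the 96 UMIs, and the median cell had 0.82 per 10000, against 3.81 with 2 markers and 0.57 with 4. Of the cells with 2 markers, 31.4% were G1.

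SOX4 went from 396 CPM with no marker to 498 with 2, 1145 with 3 and 1469.9 with 4, and was lower again, at 999 CPM (923 to 1080.5), in the 38 cells with all 6. SOX11 was at 644 CPM with no marker and at 1012 CPM (935 to 1094) with all 6. The 4-marker and 6-marker intervals do not overlap for SOX4, with 1354 as the lower bound at 4 markers, while for SOX11 they overlap, at 769 to 953 CPM with 4 markers. SOX9 was at 68.8 CPM with 3 markers and at 44.8, 13.8 and 11.1 CPM with 4, 5 and 6. The SOX9 intervals with 3 and 4 markers overlap, at 44.5 to 101.5 and 26.6 to 70.9 CPM, on 22 and 24 cells. The pooled level with 3 markers came from few cells, since 8 of the 22 (36.4%, 17.2 to 59.3) had a SOX9 UMI, against 62.7% (61.7 to 63.6) of cells with no marker.

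Contractile cells had less of most members than progenitors when measured as a share of all RNA. Of the 10 members, 7 were 2-fold or more lower by pooled CPM (SOX1, SOX2, SOX5, SOX9, SOX11, SOX13 and SOX21), against 20.1% of all genes (35.9% at 1.5-fold, where 7 members also passed), and by UMIs per cell 2 were, SOX1 and SOX21, against 3.08% of all genes. None was 2-fold or more higher by CPM, against 7.15% of all genes (11.8% at 1.5-fold), whereas SOX3 and SOX4 were by UMIs per cell, against 50.7% of all genes. Contractile cells held more UMIs per cell. Over all genes the median log2 ratio came to -0.31 on the CPM scale against 1.01 on the scale of UMIs per cell. Over the members it came to -1.39 against -0.07. The scales differ by the same amount for every gene, so the gap between the members and all genes is 1 measurement and not 2.

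**Figure D3:**
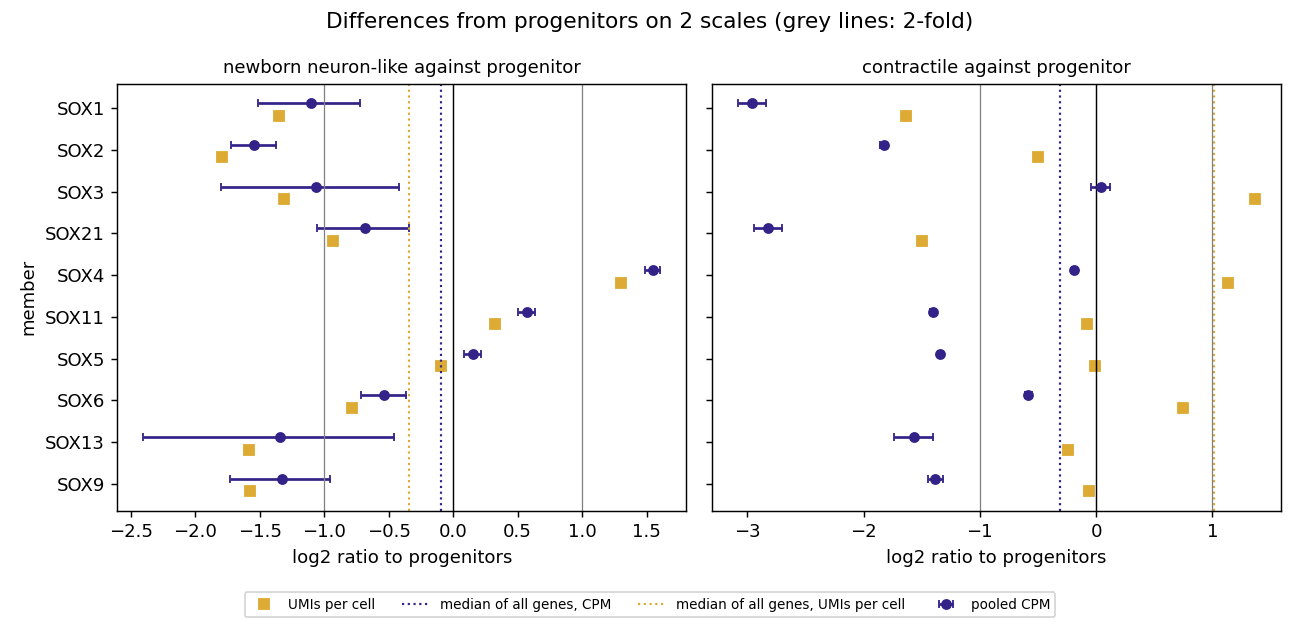
Log2 ratio to progenitors of each SOX gene in newborn neuron-like cells (left) and contractile cells (right), by pooled CPM (circles, with 95% intervals) and by UMIs per cell (squares, no interval). Dotted lines give the median of all genes on each scale, which in contractile cells moved from -0.31 to 1.01, and SOX1 and SOX21 stayed below -1 on both scales there.

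In the B1 group, SOX1 went from 60.0 to 7.71 CPM (7.10 to 8.35) in contractile cells, with a ratio of 0.128 (0.118 to 0.139), and SOX2 from 414 to 117 CPM (114 to 119), a ratio of 0.282 (0.276 to 0.288). Per cell, SOX1 was at 1.16 UMIs in progenitors and 0.373 in contractile cells, and SOX2 at 8.002 and 5.66 UMIs. Both were lower on either scale. SOX3 did not follow them. It stood at 20.2 CPM (19.6 to 20.8) in progenitors and at 20.7 CPM (19.7 to 21.8) in the contractile class. The ratio was 1.03 (0.970 to 1.09), or 2.57 by UMIs per cell. The SOX3 share of B1 UMIs was 4.08% (3.97 to 4.19) in progenitors and 14.3% (13.6 to 14.9) in contractile cells, a comparison within the same cells that no scaling changes.

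SOX21, the B2 antagonist, was at 54.7 and 7.73 CPM (7.12 to 8.38), a ratio of 0.141 (0.130 to 0.154) that was 0.354 by UMIs per cell. It thus stood with SOX1 rather than with SOX3.

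In the C group, SOX4 was at 403 and 354 CPM (350 to 358), a ratio of 0.878 (0.867 to 0.890) that turned to 2.20 by UMIs per cell. SOX11 was at 652 and 247 CPM (243 to 250.1), a ratio of 0.378 (0.372 to 0.384) that was 0.947 by UMIs per cell.

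In the D group, SOX5 was at 932 and 368 CPM, a ratio of 0.395 (0.390 to 0.400) that was 0.991 by UMIs per cell. SOX6 was at 204 and 136 CPM, a ratio of 0.668 (0.654 to 0.682) that turned to 1.67 by UMIs per cell. SOX13 was at 12.9 and 4.34 CPM (3.88 to 4.83), a ratio of 0.337 (0.300 to 0.378) that was 0.845 by UMIs per cell. SOX9 was at 73.9 and 28.3 CPM (27.2 to 29.6), a ratio of 0.383 (0.367 to 0.401) that was 0.961 by UMIs per cell. For SOX5, SOX9 and SOX11 the UMIs per cell were therefore nearly level between the classes over all depths, within a total that was larger in contractile cells. They were not level among cells with 20000 to 40000 UMIs. There progenitors and contractile cells held 22.6 and 12.4 UMIs per cell of SOX5, 1.80 and 0.868 of SOX9, and 16.9 and 9.63 of SOX11.

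Depth differed between these classes, so cells of like depth were compared, a choice made after seeing the data. Among cells with 20000 to 40000 UMIs (3817 progenitors and 440 contractile cells) 7 members were again 2-fold or more lower by CPM, against 15.6% of all genes in the same cells. SOX1 was at 59.3 and 11.4 CPM, SOX2 at 406 and 146 CPM, and SOX3 at 19.3 and 24.3 CPM. Within progenitors themselves most members were lower at 40000 UMIs or more than below 10000 UMIs, with intervals that did not overlap. The same comparison was not made over all genes, so it cannot be read as particular to the members. SOX21 went from 77.6 to 29.8 CPM, SOX9 from 101.6 to 52.7 CPM and SOX3 from 34.0 to 17.1 CPM. SOX1 went from 64.3 to 45.4 CPM, SOX2 from 447 to 325 CPM, SOX4 from 549.5 to 340 CPM, SOX5 from 1054 to 772 CPM and SOX11 from 643 to 576 CPM. SOX6, at 215 and 200.2 CPM, and SOX13, at 10.7 and 13.7 CPM, had intervals that overlapped. SOX3, which stood at similar CPM in progenitors and contractile cells, was thus lower in the deeper of the progenitors, and the part of depth in these values was not tested. Nor was the part of phase, which also differed between progenitors and contractile cells.

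**Figure D4:**
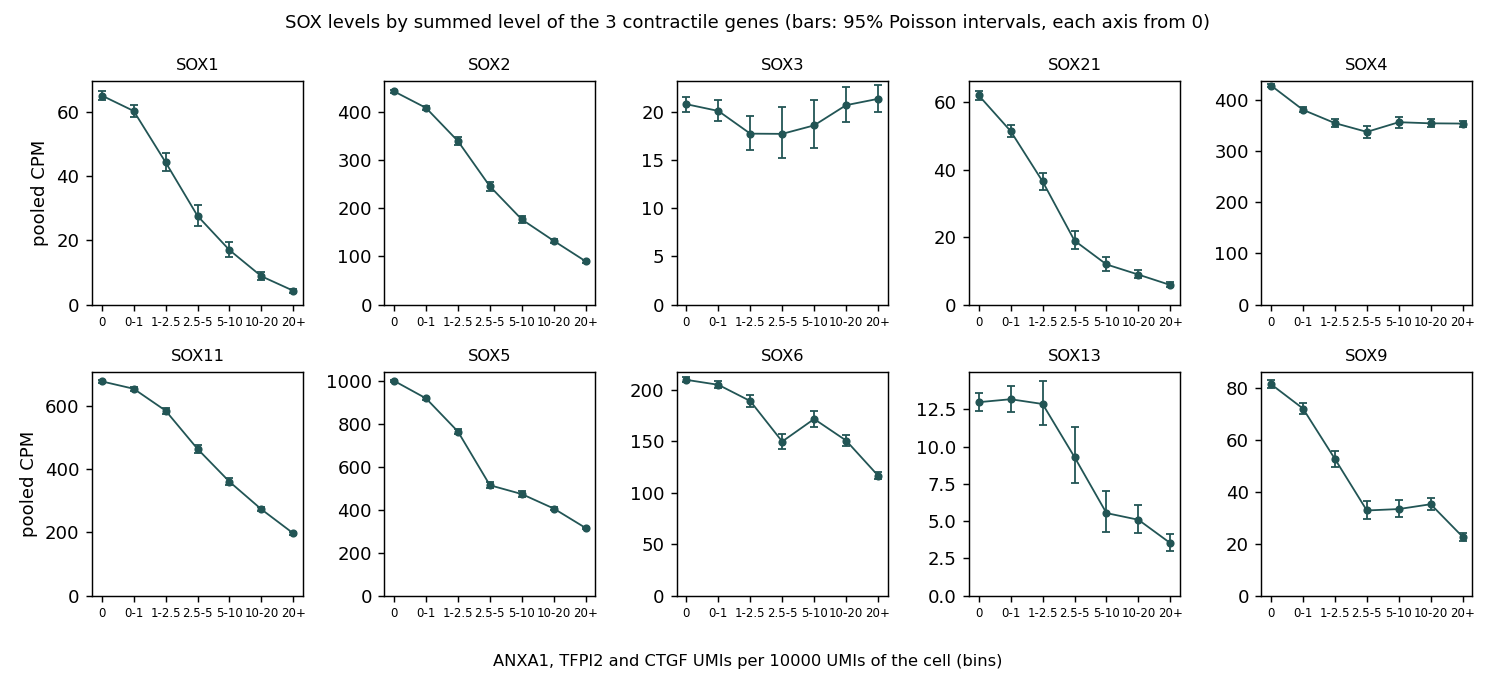
Pooled CPM of each SOX gene by the summed UMIs of ANXA1, TFPI2 and CTGF per 10000 UMIs of the cell, in 7 bins from 0 (7813 cells) to 20 or more (738 cells), with 95% Poisson intervals and a linear axis from 0 in each panel. SOX1, SOX2, SOX5, SOX11 and SOX21 were lower at every step, while SOX3 stood between 17.7 and 21.4 CPM in every bin.

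The levels went down by degrees along the summed contractile level. From cells with none of the 3 contractile genes to cells with 20 or more UMIs per 10000, SOX1 went from 65.1 to 4.29 CPM, SOX21 from 62.1 to 5.80 CPM, SOX2 from 443 to 89.9 CPM, SOX5 from 999 to 315 CPM and SOX11 from 677 to 197 CPM. Each of these was lower at each of the 6 steps between bins, including those below the limit of the class. Falls at every step were not counted over all genes, so they cannot be read as particular to these members. SOX3 stood at 20.8 CPM (20.05 to 21.6) in the lowest bin and 21.4 CPM (19.97 to 22.8) in the highest. SOX9 was at 81.5 CPM in the lowest bin and had reached 32.9 CPM in the bin from 2.5 to 5 per 10000, which lies inside the progenitor class, and was 22.7 CPM in the highest. SOX4 stood between 337 and 356 CPM in the 4 bins at 2.5 or more per 10000, after 428 CPM in the lowest bin. The median depth went from 15784 to 53542.5 UMIs over the same bins, and its part was not tested.

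Clusters were made without any SOX gene among the variable genes, and are given by number and leading genes. All 10 members differed 2-fold or more between their highest and lowest of 11 clusters, as did 80.7% of all genes, so the count itself says little of the members. The ratios ran from 3.13 for SOX13, with an interval of 1.56 to 7.35 that reaches below 2-fold, to 18.9 for SOX6. Cluster 8 (897 cells, led by EPHA3, C1orf61 and LINC00461) was the highest for 7 members, against 11.4% of all genes, and cluster 10 (165 cells, 70.3% newborn neuron-like, led by NEUROD1, NEUROG1 and EOMES) for SOX4 and SOX11, against 18.1% of all genes. The count of members for cluster 10 is near that share and says little of the members. Cluster 6 (1346 cells, 94.4% contractile, led by COL8A1 and GREM1) was the lowest for SOX1, SOX2, SOX9, SOX11 and SOX21, against 13.1% of all genes. For SOX9 its interval overlapped that of cluster 10, and for SOX21 that of cluster 9, so that these last places are not settled by counting.

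**Figure D5:**
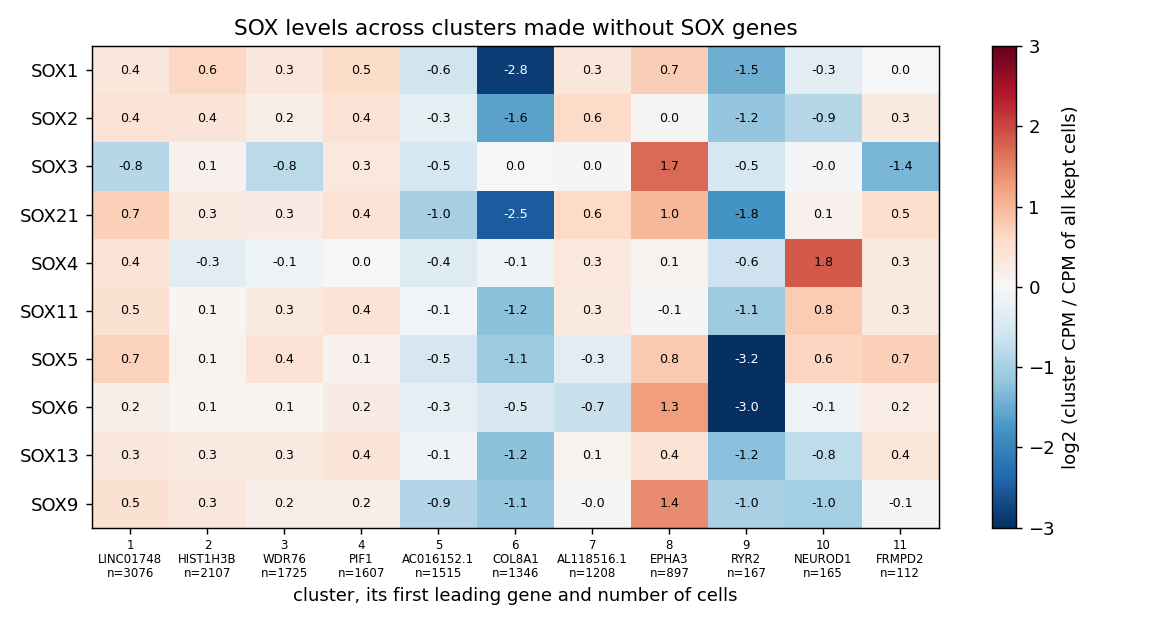
Log2 of the pooled CPM of each SOX gene in each of 11 clusters over its CPM in all kept cells, with each cluster's first leading gene and number of cells. SOX3, SOX6 and SOX9 were highest in cluster 8, SOX4 in cluster 10, and SOX5 and SOX6 were far below the rest in cluster 9.

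Cluster 8, of which 99.8% were progenitors, set SOX3 most apart. SOX3 was at 66.0 CPM (61.7 to 70.5) there and at 25.2 CPM in cluster 4, the next in order. SOX9 was at 168 CPM (161 to 175) against 86.3 CPM in cluster 1, and SOX6 at 448 CPM (437 to 460) against 222 CPM in cluster 4. SOX2 did not share this, being at 349 CPM in cluster 8 and highest, at 502 CPM (492 to 513), in cluster 7. That cluster was led by AL118516.1, AL139246.5 and THAP2, with PTTG1 and CCNB2 further down its leading genes. For SOX1 (clusters 8 and 2), SOX5 (8 and 11) and SOX13 (8 and 4) the interval of the highest cluster overlapped that of the next, so that the first place is not settled even by counting. For SOX13 every neighbouring pair of clusters overlapped.

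In cluster 10, SOX4 was at 1409 CPM (1363 to 1456) against 531 CPM in cluster 1, and SOX11 at 946 CPM (908 to 984) against 761 CPM in cluster 1. SOX5, at 1234 CPM, stood there close to the 1286 CPM of cluster 1, with intervals that overlapped. Cluster 10 thus paired raised SOX4 with SOX2 at 187 CPM and SOX9 at 30.6 CPM.

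Cluster 9 (167 cells, 57.5% contractile, led by RYR2 and S100A16) was the lowest for SOX4, SOX5, SOX6 and SOX13, and for 45.5% of all genes, so the count of members is near the background. SOX5 was at 86.5 CPM (73.3 to 101) there against 374 CPM in cluster 6, and SOX6 at 23.7 CPM (17.1 to 32.1) against 119 CPM in cluster 7. The median mitochondrial share in cluster 9 was 0.140% and the median depth 9615 UMIs, against 5.16% and 17900 in all kept cells, and the part of these in the SOX levels was not tested. With cells below a mitochondrial share of 0.01 left out, the counts of members 2-fold higher and lower were as before, 1 and 5 in newborn neuron-like cells, against 8.42% and 12.9% of all genes in the same cells, and 0 and 7 in contractile cells, against 7.18% and 20%.

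Across the phases of the cell cycle within progenitors, no member passed 2-fold by CPM (SOX3 did in G2/M against G1 by UMIs per cell, at 2.22, as did 20% of all genes), against 5.16% of all genes higher and 1.01% lower in S against G1, 3.97% and 2.35% in G2/M against G1, and 0.947% and 1.09% in G2/M against S. At 1.5-fold between the highest and lowest phase, 2 members were apart by CPM, against 25.4% of all genes, and 4 by UMIs per cell, against 67.2%. At 1.5-fold by CPM, 1 member was lower in S against G1 and 1 in G2/M against G1, where 6.89% and 9.06% of all genes were. These counts by CPM are near the shares of all genes and say little of the members. None was 1.5-fold higher, against 10.5% of all genes in S against G1, 8.59% in G2/M against G1 and 2.54% in G2/M against S, and none was 1.5-fold lower in G2/M against S, against 4.91%. SOX4 was at 547 CPM in G1, 345 in S and 391 in G2/M, and the ratio of S to G1 was 0.631 (0.621 to 0.641), or 0.808 by UMIs per cell. SOX5 was at 1294 CPM in G1, 916 in S and 759 in G2/M, and the ratio of G2/M to G1 was 0.586 (0.580 to 0.593), or 0.951 by UMIs per cell. Both were thus highest in G1 as a share of RNA, and near level for SOX5 per cell. SOX3 went the other way, at 16.9 CPM in G1, 19.1 in S and 23.1 in G2/M, a ratio of G2/M to G1 of 1.36 (1.26 to 1.48). SOX2 was at 430.0, 367 and 459 CPM. Median depth rose from 13503.5 UMIs in G1 to 17026 in S and 21851 in G2/M, so that the ratios of G2/M to G1 by UMIs per cell were above 1 for all members but SOX5, also for SOX4, SOX6, SOX9, SOX11, SOX13 and SOX21, which were below 1 by CPM.

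Among progenitors thinned to 5000 UMIs, those with a UMI of EMX2, a gene of the dorsal forebrain, had more SOX3 than those without. SOX3 was at 31.5 CPM in the 3147 cells with EMX2 and 17.1 CPM in the 9049 without, a ratio of 1.84 (1.64 to 2.06). SOX9 (1.38, 1.30 to 1.47), SOX21 (1.34, 1.25 to 1.44) and SOX6 (1.29, 1.24 to 1.34) were higher in the same cells, as were SOX1 (1.19, 1.11 to 1.28) and SOX5 (1.15, 1.13 to 1.17), and by less SOX2 and SOX4, both at 1.06. For SOX11 (0.985) and SOX13 (0.945) the interval covered 1. In the 406 cells with RAX or SIX6, genes of the eye field and hypothalamus, SOX3 was at 0.679 (0.453 to 0.980), SOX6 at 0.815 (0.730 to 0.907), SOX9 at 0.829 (0.692 to 0.985), SOX5 at 0.895 (0.853 to 0.939) and SOX11 at 0.944 (0.892 to 0.999), and for the other members the interval covered 1. In the 123 cells with PAX3, a dorsal gene, SOX21 was at 0.594 (0.372 to 0.900) on 22 UMIs and SOX4 at 0.832 (0.724 to 0.951). NKX2-1, a ventral gene, marked only 73 cells, and there the interval covered 1 for all members but SOX2, at 1.199 (1.03 to 1.38). The same splits were not read over all genes, so it cannot be said whether the members differ more than other genes. With this many intervals, some can miss 1 by counting error alone.

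Most pairs of members were detected together about as often as their separate shares give. A progenitor thinned to 5000 UMIs had a UMI of a median of 5 of the 10 members. Of the 45 pairs, 42 were seen together 0.931 to 1.15 times as often as the product of their shares. This ratio cannot exceed 1 divided by the larger share of the pair. SOX5, SOX11, SOX2 and SOX4 were detected in 95.1%, 94.3%, 84.7% and 81.8% of these cells, so their pairs had little room above 1. For those pairs a ratio near 1 says little, and only pairs of less often detected members could stand well above it. The other 3 all held SOX3, namely SOX3 with SOX21 (1.36, 1.22 to 1.51), with SOX9 (1.26, 1.14 to 1.39) and with SOX13 (1.25, 0.994 to 1.55). Of the B1 genes, 61.6% of progenitors had a UMI of 1, 25.4% of 2, 2.15% of all 3 and 10.9% of none, at a depth where an absent UMI does not show an absent transcript. The variance over the mean, which is 1 for counting alone and rises with the mean for a given spread, was 2.37 for SOX5 (mean 4.83 UMIs), 1.76 for SOX6 (mean 1.03) and 1.70 for SOX4 (mean 2.12), against a median of 1.04 over all genes. For SOX2, SOX9 and SOX11 it was 1.25, 1.26 and 1.28, on means of 2.14, 0.393 and 3.29, and for SOX3 it was also 1.26, on a mean of only 0.104. For SOX1, SOX13 and SOX21 it was 1.07, 1.02 and 1.12.

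Genes that act with or downstream of the SOX proteins were taken from lists of textbook partners and targets. Over all genes, 8.47% were 2-fold or more higher and 12.8% lower by CPM in newborn neuron-like cells. In contractile cells these shares were 7.15% and 20.1%. The lists are short, so counts near these shares say little of them. Of 7 partner genes, 5 were measured at 1 CPM or more. In newborn neuron-like cells POU3F1 (2.86 to 23.3 CPM, ratio 8.17) and POU3F2 (13.6 to 45.1 CPM, ratio 3.31), POU factors that bind DNA beside SOX2 and SOX11, were 2-fold higher, and none was 2-fold lower. In contractile cells PAX6 (0.374) and POU3F3 (0.104) were 2-fold lower and none was higher by CPM, whereas by UMIs per cell PAX6 was at 0.938 and POU3F1 and POU3F2 at 2.60 and 3.61, on a scale where 50.7% of all genes were 2-fold or more higher.

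Of 7 genes listed as B1 targets, 3 were 2-fold lower in newborn neuron-like cells, against 12.8% of all genes. They were HES1 (0.313) and HES5 (0.334), which carry Notch signals, and FABP7 (0.405), a lipid carrier of radial glia. In contractile cells HES5 (182 to 10.2 CPM, ratio 0.056), FABP7 (488 to 50.6 CPM, ratio 0.104) and LHX2 (163 to 27.7 CPM, ratio 0.169) were 2-fold lower, while NES, an intermediate filament gene, was higher, at 239 and 666 CPM. HES1 did not pass 2-fold there, where its CPM ratio of 0.796 turned to 1.99 by UMIs per cell.

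Of 6 genes listed as C-group targets, 4 were 2-fold higher in newborn neuron-like cells, against 8.47% of all genes. They were TUBB3 (ratio 6.98), DCX (12.4) and MAP2 (2.69), which belong to the microtubule cytoskeleton of neurons, and STMN2, which is part of the rule for the class and so had to differ. TUBB3 and DCX were also among the further neuron genes compared above, so their rise is not a separate result about C-group targets. STMN1 was at 1.53 and TEAD2 at 0.737. In contractile cells MAP2 (0.211) and DCX (0.468) were 2-fold lower by CPM, as were 20.1% of all genes. The ratio of DCX turned to 1.17 by UMIs per cell, and STMN2 was higher, at 31.7 against 11.9 CPM.

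Of 6 genes listed as SOX9 targets, SLC1A3, a glutamate transporter of glia (0.338), and COL2A1, a cartilage collagen (0.377), were 2-fold lower in newborn neuron-like cells, as was HAPLN1 on 1 UMI (0.497, 0.013 to 2.79). Over all genes, 12.8% were 2-fold lower and 8.47% higher in those cells. NFIA, a factor of the turn to glia, was higher, at 24.3 against 10.6 CPM (ratio 2.29, 1.68 to 3.04). In contractile cells NFIA was at 1.59 CPM (ratio 0.150), and HAPLN1, which links matrix proteoglycans, went from 1.02 to 29.1 CPM (ratio 28.5), while COL2A1 was at 0.637 and SLC1A3 at 1.25 on the CPM scale and at 1.60 and 3.14 on the scale of UMIs per cell. The lists thus held genes that moved with their SOX gene and genes that did not.

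Transcripts that overlap members were read in the same classes. SOX21-AS1 was at 18.2 CPM in progenitors, 13.7 CPM in newborn neuron-like cells and 5.16 CPM in contractile cells, where its ratio of 0.283 (0.254 to 0.314) stood beside 0.141 for SOX21. SOX1-OT was at 1.82 CPM in progenitors, 2.54 CPM in newborn neuron-like cells (5 UMIs, ratio 1.39, 0.451 to 3.28) and 0.261 CPM in contractile cells, a ratio of 0.144 (0.087 to 0.225). SOX5-AS1 was at 1.05, 3.55 and 0.392 CPM, with ratios of 3.38 (1.34 to 7.06, on 7 UMIs) in newborn neuron-like cells and 0.373 (0.246 to 0.546) in contractile cells. SOX2-OT and SOX9-AS1 were not analysed here. Of the 9 other SOX genes, SOX12, the remaining C-group gene, was at 34.6, 25.4 and 18.9 CPM in progenitors, newborn neuron-like and contractile cells, SOX8 at 3.77, 2.54 and 2.65 CPM, and the rest stayed below 1.2 CPM in every class. SOX10, the neural crest and oligodendrocyte gene, was at 0.780 CPM in progenitors and 0.261 CPM in contractile cells.

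Over the 11 clusters, the gene whose log2 level ran most like that of each member was named among 9988 genes at 10 CPM or more. It was OTX2 for SOX21 (r = 0.995), BOC for SOX2 (0.981), GDF11 for SOX11 (0.981), LTBP4 for SOX1 (0.982), ASB8 for SOX4 (0.982), WWP1 for SOX6 (0.974), ACACB for SOX13 (0.985) and URI1 for SOX9 (0.938), with HES5 next (0.928). SOX5 ran most like LINC00648 (0.997). SOX3 had the weakest best match, ID4, at 0.860. Among the members, SOX1 ran with SOX21 (0.953), SOX2 with SOX13 (0.9498) and SOX5 with SOX6 (0.927). These correlations describe 11 clusters of 1 library that share its depth and its cells, and the highest of 9988 values is high by selection.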

How the data were processed

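The library held 3′ transcript counts of 1 sample. The authors deposited raw counts of UMIs per gene and barcode, made with Cell Ranger 7.0.1 at default settings on GRCh38, with barcodes not called as cells removed. The annotation release and the counting strand are not given in the sources used here. By default that version also counts intronic reads, which bears on SOX5 and SOX6. Values were checked to be whole numbers. Cells were filtered by the gene and mitochondrial limits of the methods, the latter read as a fraction.

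Levels are pooled CPM with exact 95% Poisson intervals, ratios carry the exact conditional interval, and shares the Clopper-Pearson interval. A gene at 0 in a class was set to 3 counts for the count of all genes. PCR duplicates were removed by UMI upstream, and intervals cover counting error only. Thinning to 5000 UMIs left out 28 of 13925 kept cells, 24 of them progenitors, 1 newborn neuron-like and 3 contractile. Phases came from scanpy 1.11.5 scores over 43 S and 54 G2/M genes. Clusters came from 2000 variable genes without SOX genes, 30 components, 20 neighbours and Leiden (leidenalg 0.10.2) at resolution 0.5. Scrublet, with an expected rate of 8%, marked 222 barcodes, and none was removed outside the alternative that drops the highest 8% of scores. Depth per kept cell ran from 3167 to 118188 UMIs. Scripts ran in Python 3.11.15 with pandas 2.3.3, scipy 1.17.1 and numpy 2.4.6, and the ratios and thinning were tested on simulated data.

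The members, classes and lists were chosen with earlier results of these data known. Named genes were the members, the other SOX genes, the partner and target lists, the overlapping transcripts, and for each member the 3 genes most like it over clusters. Marker lists of other cell types gave the following. Of the neural crest genes, TFAP2A was at 0.326 CPM in progenitors, 25.9 CPM in newborn neuron-like cells (51 UMIs, ratio 79.3, 54.5 to 114) and 0.091 CPM in contractile cells, ERBB3 at 2.45, 4.06 and 0.823 CPM and SOX10 below 1 CPM in each class. FOXD3 was at 0 outside progenitors and TFAP2B at 0 in newborn neuron-like cells. The summed level of that list is not reported here. Endoderm genes (4) summed to 0.420 CPM in progenitors, 1.52 CPM in newborn neuron-like cells and 4.36 CPM in contractile cells, where GATA6 was at 3.57 CPM on 273 UMIs against 0.161 CPM in progenitors (ratio 22.1, 15.7 to 32.0), and its part in the SOX levels was not tested. FOXA2 was at 0 in each class. Glial genes (6) summed to 4.16, 3.04 and 2.00 CPM in the same order. Mesoderm genes (4) summed to 151.6 CPM in newborn neuron-like cells, of which EOMES, also a gene of neuronal intermediate progenitors, made 146 CPM. Pluripotency genes (6) summed to 362, 180.5 and 258 CPM, of which LIN28A made 236, 106 and 191 CPM.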

Additional observations from a re-analysis of the deposited data

How the results depend on the processing

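No paired analysis was possible because there was 1 library. The alternatives with 20000 to 40000 UMIs, with G1 cells alone, with progenitors that had no contractile UMI, and without cells below a mitochondrial share of 0.01 were chosen after seeing the data. Opening the newborn neuron-like class to 2 or more markers left 0 members 2-fold higher and 0 lower, against 3.06% and 1.39% of all genes, since that class takes in the 207 cells with 2 markers. By UMIs per cell, 2 members were 2-fold higher and 2 lower in contractile cells, against 50.7% and 3.08% of all genes, and 4 members were 1.5-fold or more apart between phases, against 67.2% of all genes. The other settings left each of these counts within 1.5 times its value. The 7 members lower in contractile cells had ratios from 0.102 (SOX1, highest Scrublet scores removed) to 0.466 (SOX11, 20000 to 40000 UMIs) in the other alternatives, all of them below 0.5. Over all alternatives of the newborn neuron-like comparison, SOX4 had ratios from 1.76 to 3.26, SOX2 from 0.195 to 0.774, SOX1 from 0.280 to 0.864, SOX3 from 0.102 to 0.910, SOX9 from 0.161 to 0.848 and SOX13 from 0.206 to 0.692. No called ratio changed its direction. Among 294 values other than counts of members and class shares, 162 stayed within the interval or limit and 132 moved. Most of these were ratios of single members, and a few were shares of all genes. At 10 CPM or more, 4.53% of genes were 2-fold higher in newborn neuron-like cells and 12.5% 2-fold lower in contractile cells.

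Class shares moved with the limits. With 2 or more neuron markers, progenitors were 86.3% and newborn neuron-like cells 2.36% of kept cells, and with 4 or more markers the latter were 0.711%. At 2.5 contractile UMIs per 10000, progenitors were 85.4% and contractile cells 13.7%, and at 10 they were 90.1% and 9.06%. Without the barcode filter these were 87.0% and 12.1%. With a mitochondrial share below 0.05, progenitors were 87.1% and newborn neuron-like cells 1.40%, and thinning before the classes were set gave 0.684% newborn neuron-like cells. The depth limits SOX3 and SOX13 in newborn neuron-like cells, which rest on 19 and 10 UMIs.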

Other observations

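Of the 121 newborn neuron-like cells, 61 had a SOX2 UMI and 60 had none, at median depths of 15622 and 12500.5 UMIs. This split was made after the values were seen and is by detection: a single UMI can come from free RNA, and SOX2 was detected in every class here, so no background share can be given and the part of free RNA and of depth was not tested. SOX9 was at 45.7 CPM (34.5 to 59.3) in the cells with a SOX2 UMI and 2.68 CPM (0.325 to 9.69) in those without, and SOX1 at 37.5 CPM (27.5 to 50.04) and 12.1 CPM (5.52 to 22.9). SOX4 was at 1161 and 1203 CPM and SOX11 at 936 and 1022 CPM. STMN2, a growth-cone protein gene, was at 1097 and 3337 CPM, DCX at 575 and 1226 CPM, and TOP2A, a gene of dividing cells, at 185 and 14.8 CPM. G1 was called for 73.8% of the cells with a SOX2 UMI and 100% of those without. The highest 8% of Scrublet scores took in 18.03% and 3.33% of them, and the part of doublets in this split was not tested.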
